A study of Mus musculus with 6 samples.

Results

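The genes described here carry out DNA replication: 44 listed genes that license origins, unwind DNA, copy it at the fork, supply deoxynucleotides and restore chromatin behind the fork. They were chosen from a fixed list of symbols, as every probe set whose annotation gave 1 listed symbol. All 44 genes were on the array, with 97 probe sets, out of 18193 genes and 45037 probe sets that were not array controls. The cells were 344SQ, a murine lung cancer line grown in RPMI medium with serum, in both groups. Vectors for the hairpins were introduced by lipid transfection, and the labels do not say whether each group was 1 clone or a pool. The 2 groups were cells with an shRNA against mouse Pik3ca, labelled as a PIK3CA knockdown (3 arrays), and cells with a control shRNA (3 arrays). Whether the 3 replicates of a group were grown as separate cultures is not in the labels; if they were not, the p-values reflect technical spread alone.

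Replication starts from origins that are licensed in G1, when the origin recognition complex, Cdc6 and Cdt1 load rings of the MCM2-7 helicase onto DNA. In S phase, Cdc45 and the GINS complex bind the ring, Mcm10 helps it to fire, and the polymerases, the sliding clamp and its loader copy both strands. Most of these genes are transcribed as cells pass from G1 into S phase under E2F factors, and PI3K signalling is among the inputs that drive that passage in many epithelial tumour cells. The comparison asks which of their transcripts differ when Pik3ca, the gene of the p110-alpha catalytic subunit, is knocked down.

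Pik3ca itself read 1249, 1237 and 1219.8 on the PIK3CA shRNA arrays, against 2450.0, 2324 and 2363 on the control shRNA arrays by its brightest probe set. The knockdown left 51.9% of the control intensity, and 5 of its 6 probe sets passed the test as lower. The line's epithelial genes Krt8, Krt18, Krt19 and Cdh1 were bright in both groups, between intensities of 5438 and 14206, while the lung lineage markers Nkx2-1 and Sftpc were dim, at 102 and 90.2 in PIK3CA shRNA cells and 116 and 94.1 in control shRNA cells. Epcam and Cldn7, also epithelial, were dimmer, at 368 and 117 in PIK3CA shRNA cells and 467 and 156 in control shRNA cells. The 8 epithelial and lung markers summed to 43493 to 44204 in PIK3CA shRNA cells and 42511 to 45337 in control shRNA cells. Of them 0 were called, and 1 (Epcam) was lower at an unadjusted p under 0.05. The 8 leukocyte markers summed to 2385 to 2806 in PIK3CA shRNA cells and 1705 to 1852 in control shRNA cells, with 2 called higher (Fcgr3 and Cd14). Ptprc, which defines leukocytes, was dim at 58.6 in PIK3CA shRNA cells and 63.1 in control shRNA cells. The 8 fibroblast markers summed to 514 to 793 in PIK3CA shRNA cells and 718 to 742 in control shRNA cells, with 1 lower (Dcn), and the 6 endothelial markers to 609 to 739 in PIK3CA shRNA cells and 581 to 645 in control shRNA cells, with 0 called (1 lower and 1 higher at an unadjusted p under 0.05). The part of these markers in the replication results was not tested. The ratio of 5′ to 3′ actin control probes, a sign of RNA integrity, was 0.877 to 0.887 in PIK3CA shRNA cells and 0.881 to 0.936 in control shRNA cells.

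Replication genes were lower in PIK3CA shRNA cells where they differed. Of the 44, 11 fell and 0 rose by limma at an adjusted p of 0.05. These were Cdc6 and Orc6 of origin licensing, Mcm5 of the helicase ring, Mcm10 and Cdc45 of helicase activation, Prim1 and Pole of DNA synthesis, the clamp loader genes Rfc1 and Rfc5, Fen1 of lagging-strand maturation, and Rrm2 of deoxynucleotide supply. The falls were modest, to between 63.2% and 81.4% of the control intensity. Over all genes, 5.62% were called lower and 5.88% higher. At an unadjusted p under 0.05, 20 members were lower and 0 higher, against 13.2% of all genes lower and 12.7% higher. Each change is the log2(intensity + 16) of PIK3CA shRNA cells minus that of control shRNA cells, a scale that shrinks the changes of dim genes. Gene positions in parentheses are those of RefSeq's GRCm38.p6 table.

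The median change of the 44 genes was -0.16, against -0.01 over all genes, and 36 of them (81.8%) had a change below 0, against 52.0% of all genes. In 25 members (56.8%) every PIK3CA shRNA array read below every control shRNA array, against 17.0% of all genes. In 0 members was the order the other way, against 16.1% of all genes. The members are bright genes, 43 of 44 above the median brightness, and among the other genes above that median 8.78% were called lower, 8.76% were called higher, 24.9% did not overlap in the lower direction and 51.7% had a change below 0. Summed over the 44 genes, the intensity was 76686, 77441 and 77963 on the PIK3CA shRNA arrays, against 86715, 89097 and 86223 on the control shRNA arrays. The groups did not overlap in that sum. In bulk RNA, fewer cells that carry these transcripts and less transcript per cell cannot be told apart.

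**Figure D1:**
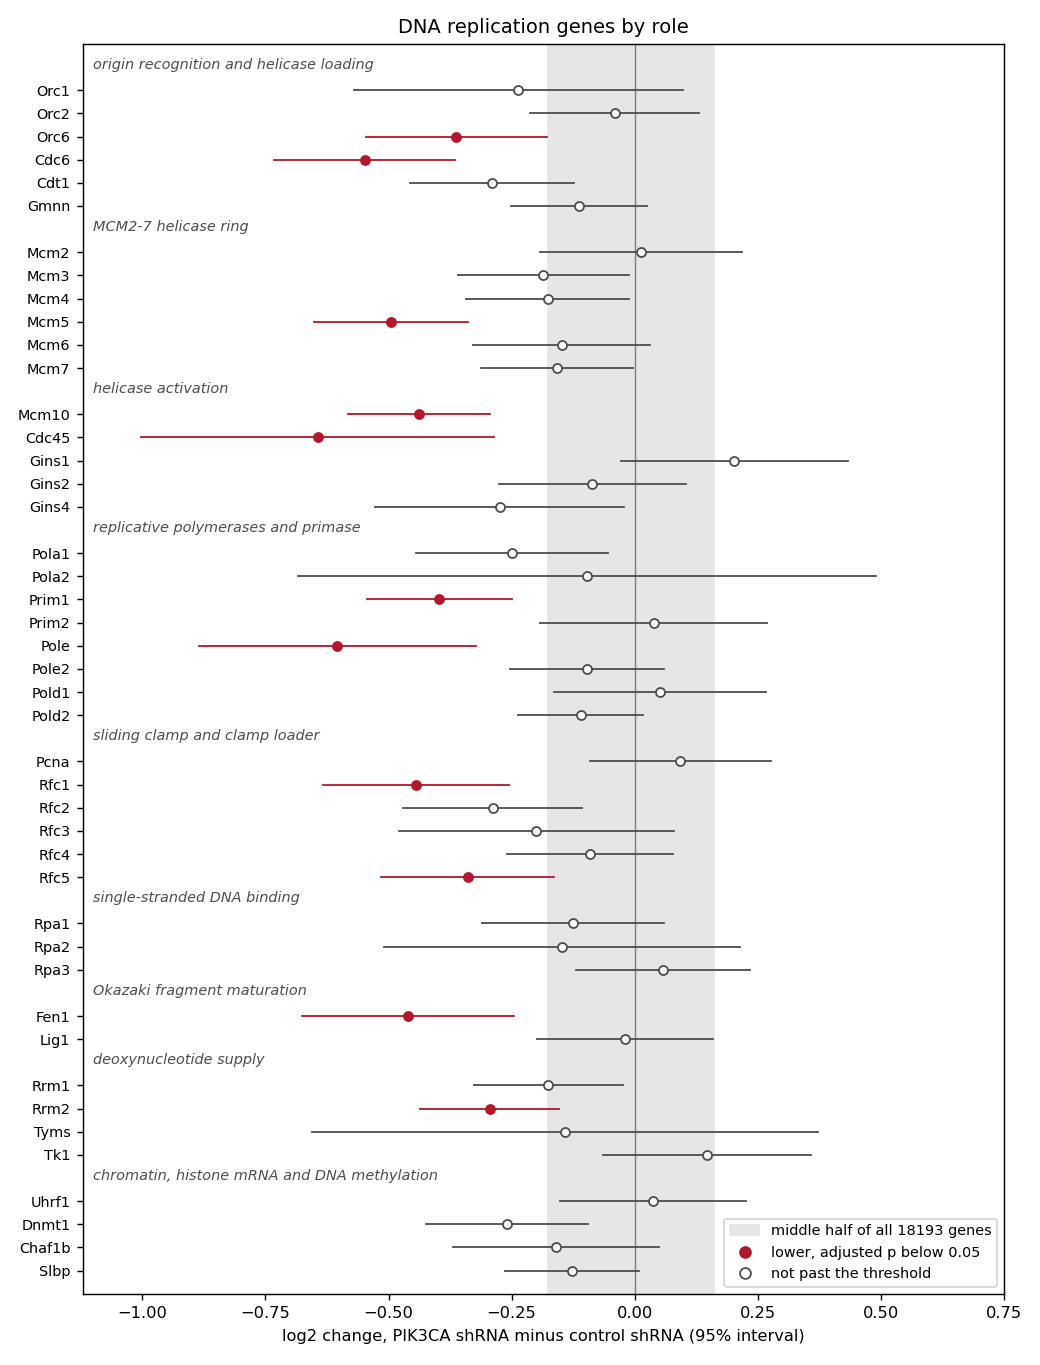
Log2 change (PIK3CA shRNA minus control shRNA) of the 44 replication genes, grouped by role, with 95% intervals from the limma fit. The 11 filled red points are past adjusted p 0.05 and all lie below 0. The grey band spans the middle 50% of all 18193 genes.

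The count of 11 depended on every array being kept. It was 3, 5 and 4 without PIK3CA shRNA replicates 1, 2 and 3, and 4, 3 and 3 without control shRNA replicates 1, 2 and 3, where fewer arrays entered the fit. Cdc6, Mcm5 and Mcm10 kept their calls in each of these 6 fits, and 35 to 37 members had a change below 0.

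Promoter windows are shown for the 4 called members with the smallest adjusted p, because genes that moved together can be read against the E2F-type letters that mark many replication promoters. Each window runs from 250 bases before to 50 after a start site in RefSeq's GRCm38.p6 table, 5′ to 3′ on the gene's strand. Capitals mark matches, on either strand, of the CCAAT box and of an E2F type with 7 letters: TTCCCGC with its variants that have TTCGCGC or else TTGCCGC or else TTGGCGC. The CCAAT box can overlap the E2F type. The windows are chr8:75109259-75109558 on the + strand, chr2:5012742-5013041 on the - strand, chr11:98907901-98908200 on the + strand and chr10:128014965-128015264 on the + strand.
Mcm5: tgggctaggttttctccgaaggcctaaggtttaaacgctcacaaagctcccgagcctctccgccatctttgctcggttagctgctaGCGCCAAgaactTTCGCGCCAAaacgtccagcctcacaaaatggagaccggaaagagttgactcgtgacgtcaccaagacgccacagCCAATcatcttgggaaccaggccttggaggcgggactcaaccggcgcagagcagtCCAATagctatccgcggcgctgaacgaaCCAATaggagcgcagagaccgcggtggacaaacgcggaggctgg
Mcm10: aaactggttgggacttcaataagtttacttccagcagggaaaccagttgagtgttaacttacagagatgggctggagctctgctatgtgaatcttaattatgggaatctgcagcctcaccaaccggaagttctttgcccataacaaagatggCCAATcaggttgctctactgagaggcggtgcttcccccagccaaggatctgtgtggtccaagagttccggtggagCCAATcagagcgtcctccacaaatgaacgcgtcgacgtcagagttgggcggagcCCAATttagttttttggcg
Cdc6: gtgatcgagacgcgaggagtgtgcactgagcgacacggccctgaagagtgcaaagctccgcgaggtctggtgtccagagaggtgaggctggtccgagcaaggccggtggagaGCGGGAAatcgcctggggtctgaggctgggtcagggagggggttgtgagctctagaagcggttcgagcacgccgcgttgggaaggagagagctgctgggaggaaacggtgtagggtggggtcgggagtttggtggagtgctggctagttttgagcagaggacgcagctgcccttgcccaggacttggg
Prim1: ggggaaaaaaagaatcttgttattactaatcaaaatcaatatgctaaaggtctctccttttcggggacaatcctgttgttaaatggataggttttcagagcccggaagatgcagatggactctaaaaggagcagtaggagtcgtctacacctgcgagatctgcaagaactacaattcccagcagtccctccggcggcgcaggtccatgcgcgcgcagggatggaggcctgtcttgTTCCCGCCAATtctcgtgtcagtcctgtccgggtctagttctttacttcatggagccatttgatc

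The Mcm5 window holds 3 matches of the E2F type, the first at position -164 from the start site and the other two overlapping at -152 and -149, and 3 CCAAT boxes. The Cdc6 window holds 1 E2F-type match at -138 and the Prim1 window 1 at -15, which overlaps a CCAAT box. The Cdc6 window begins inside the gene's span, which starts at position 98907709, so no bases before that span are shown. The Mcm10 window has 3 CCAAT boxes and 0 matches of these E2F-type letters, although it ends in TTGGCG, 1 letter short of a match. RefSeq windows were found for 36 of the 44 members, 45 windows in all, as 7 genes have several start sites.

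E2F-type letters were more common in the members' windows than in others. Of the 45 windows, 57.8% held the 7-letter type, against 9.6% of all 32851 windows and 17.4% of windows of other genes above the median brightness. The 8-letter forms TTTCCCGC, TTTCGCGC, TTTGCCGC and TTTGGCGC, which contain the 7-letter ones, were in 31.1% of the members' windows, 2.3% of all and 4.2% of those of bright genes. Among genes with a window, 6 of the 10 called lower held the 7-letter type, as did 17 of the 26 not past the threshold. The 8-letter forms were in 2 of those 10 (Cdc6 and Mcm5) and in 12 of those 26. CCAAT was in 62.2% of the members' windows, 37.4% of all and 37.0% of those of bright genes. The cell cycle element TTTGAA was in 11.1% of the members' windows, 17.9% of all and 11.6% of those of bright genes. The FOXO core GTAAACA was in 4.4%, against 3.6% of all and 2.7% of those of bright genes. A match describes letters only, on either strand, and is not a bound site.

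Among the genes that recognise origins and load the helicase, 2 of 6 fell. Cdc6 (chr11:98907709-98923942), the ATPase that joins the origin recognition complex to bring in MCM rings, read 385, 360.4 and 392 on the PIK3CA shRNA arrays, against 605, 548 and 533 on the control shRNA arrays. Every PIK3CA shRNA array lay below every control array. Its change was -0.55 ± 0.07 (SE; limma adjusted p = 0.0110). Orc6 (chr8:85299632-85308279), a subunit of the origin recognition complex, read 662, 605 and 633 on the PIK3CA shRNA arrays, against 880.0, 778 and 799.9 on the control shRNA arrays. The groups were apart, at -0.36 ± 0.07 (SE; limma adjusted p = 0.0354), although 1 control array stood higher than the other two.

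Cdt1, which works with Cdc6 to load the ring, missed the threshold narrowly. It read 4458, 4438 and 4428 on the PIK3CA shRNA arrays, against 5127, 5810.0 and 5379 on the control shRNA arrays, without overlap, and its change was -0.29, adjusted p = 0.0502. A further Cdt1 probe set read -0.34, also with groups apart. Cdt1 is on chromosome 8, where other genes above the median brightness had a median change of -0.25. Less that median, the change of Cdt1 was -0.04. Gmnn, the inhibitor of Cdt1 that blocks licensing after G1, was at -0.11, adjusted p = 0.276. Orc1, the ATPase subunit of the origin complex, was at -0.24 with an interval of -0.57 to 0.10, and Orc2, a core subunit, at -0.04 (-0.21 to 0.13). All 6 genes of this role had a change below 0, with groups apart in Orc6, Cdc6, Cdt1 and Gmnn. Orc6 minus Orc2 within each array changed by -0.32, again with groups apart (exact two-sided permutation p = 0.1, the smallest that these arrays allow). Orc1 and the subunits of the further list below were left out of that difference. Among the latter, Orc5 was lower (-0.39, limma adjusted p = 0.0297), while Orc4 (0.17) and Orc3 (0.24) were not past the threshold.

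In the MCM2-7 ring, the helicase that unwinds DNA at the fork, Mcm5 (chr8:75109468-75128439) was the one gene of 6 that fell. It read 2768, 2989.8 and 3029 on the PIK3CA shRNA arrays, against 4209, 4159 and 4028 on the control shRNA arrays. Its change was -0.50 ± 0.06 (SE; limma adjusted p = 0.00938), or 70.9% of the control. The other two Mcm5 probe sets, both dimmer, read -0.62 and -0.43, each with groups apart and neither past the threshold over all probe sets.

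None of the other 5 ring genes passed the limma test, although 3 of them were below an unadjusted p of 0.05 (Mcm3, Mcm4 and Mcm7). Mcm3 was at -0.19, Mcm4 at -0.18, Mcm6 at -0.15 and Mcm7 at -0.16, with groups apart in all 4. Mcm2 read 1397, 1584 and 1644 on the PIK3CA shRNA arrays, against 1471, 1519 and 1587 on the control shRNA arrays, with overlapping groups, a change of 0.01 with an interval of -0.19 to 0.22. Its second probe set read 0.16, with every PIK3CA shRNA array above every control array and not past the threshold. One of the 4 Mcm7 probe sets did pass over all probe sets, at -0.41, while the brightest, which carries the array maker's suffix for probes shared between transcripts, did not. Within each array, Mcm5 minus the mean of its 5 partners changed by -0.36, the PIK3CA shRNA arrays lying between -0.37 and -0.35 and the control shRNA arrays between -0.07 and 0.05 when set relative to the control mean. An exact two-sided permutation test gave p = 0.1, which is the least it can give with 3 arrays a group.

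Genes that turn the loaded ring into an active helicase held the lowest change of the 44. Cdc45 (chr16:18780447-18811972), which binds the ring with GINS to form the working helicase, read 261, 208 and 302 on the PIK3CA shRNA arrays, against 442, 381 and 397 on the control shRNA arrays. The PIK3CA shRNA arrays varied more, relative to their mean, than in the other called genes, yet stayed below all controls. It changed by -0.64 ± 0.14 (SE; limma adjusted p = 0.0464), close to the threshold, and the call was lost at a pseudocount of 1 (adjusted p = 0.0589). Mcm10 (chr2:4990724-5012791), a fork factor needed to start unwinding, read 726, 762 and 736 on the PIK3CA shRNA arrays, against 975, 1042 and 1014 on the control shRNA arrays. Both groups were tight, and the change was -0.44 ± 0.06 (SE; limma adjusted p = 0.0103). With the mean of its 3 probe sets, 2 of them dim, Mcm10 read -0.29 (adjusted p = 0.0855).

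No GINS gene among the 44 passed the test, while Gins3, of the further list below, was lower (-0.38, limma adjusted p = 0.0268). Gins4 was at -0.27 with groups apart and Gins2 at -0.09, while Gins1 read 1081, 1014 and 1035 on the PIK3CA shRNA arrays, against 868, 1022 and 835 on the control shRNA arrays. The Gins1 groups overlapped, with a change of 0.20 (adjusted p = 0.246), the highest change of the 44, and its second probe set read 0.20. Gins4 minus Gins1 within each array, which leaves out Gins2 and Gins3, changed by -0.48, with groups apart and an exact two-sided permutation p of 0.1, the smallest possible here. This and the other five within-complex differences were chosen after the values were seen, and the p adjusted over the 6 was 0.1 for each.

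**Figure D2:**
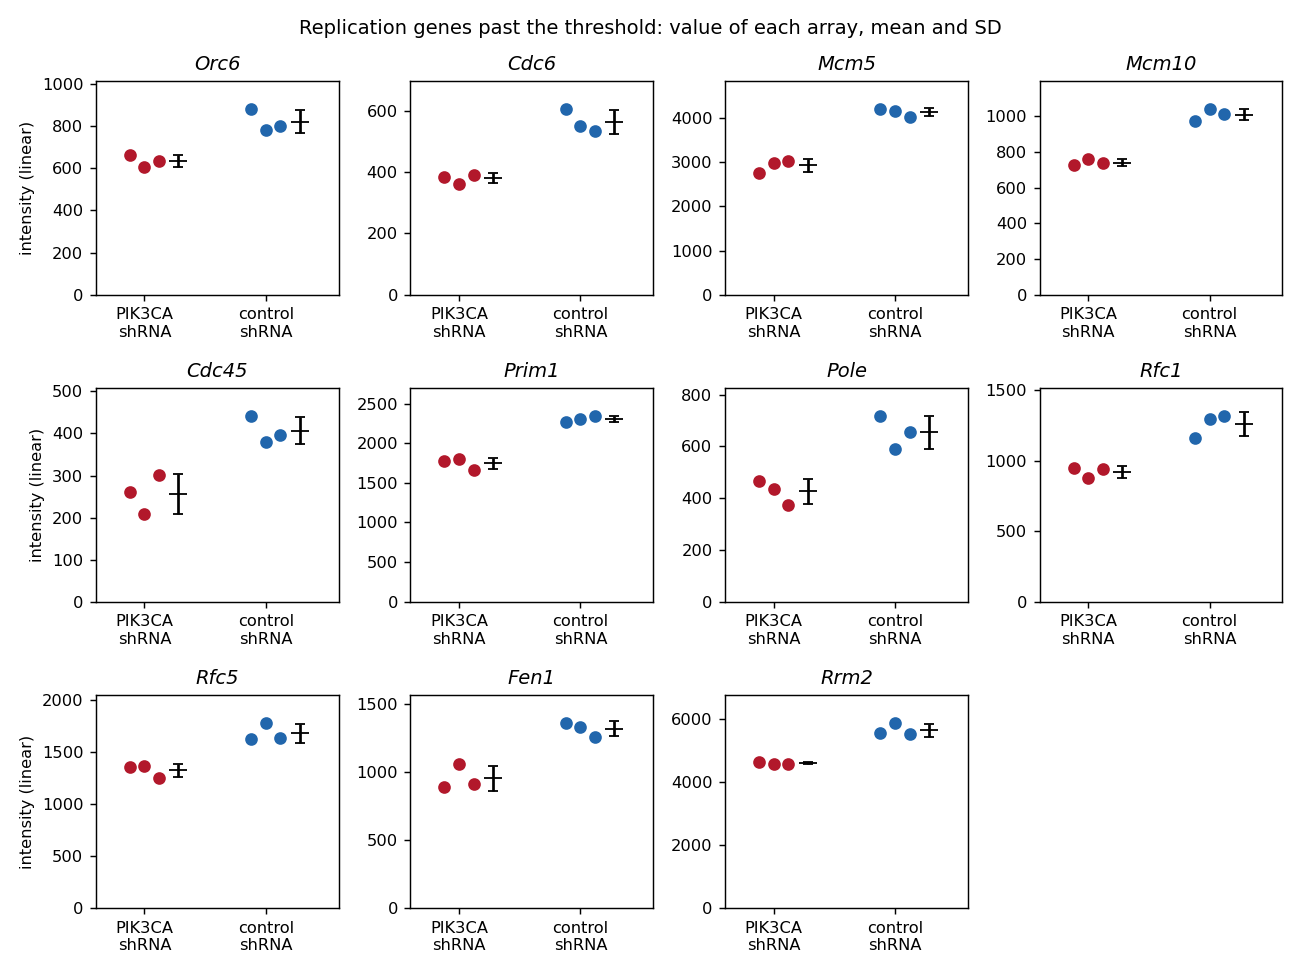
Linear intensity of the 11 genes past the threshold on each of the 3 PIK3CA shRNA arrays (red, left) and 3 control shRNA arrays (blue, right), with the mean and SD in black; each axis starts at 0. In each of the 11 genes the highest PIK3CA shRNA array lies below the lowest control array.

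At the fork, 2 of 8 polymerase and primase genes fell. Pole (chr5:110286319-110337468), the catalytic subunit of the leading-strand polymerase epsilon, read 468, 434 and 375 on the PIK3CA shRNA arrays, against 718, 591 and 654 on the control shRNA arrays. Its single probe set fell to 65.0% of control, a change of -0.60 ± 0.11 (SE; limma adjusted p = 0.0279). Prim1 (chr10:128015215-128030030), the catalytic primase subunit that lays the RNA primers, read 1780.2, 1799.9 and 1669 on the PIK3CA shRNA arrays, against 2269, 2307 and 2348 on the control shRNA arrays. It changed by -0.40 ± 0.06 (SE; limma adjusted p = 0.0143), and its dimmer second probe set read -0.30 with groups apart. With the mean of both, Prim1 read -0.35 (adjusted p = 0.0575).

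Their partner subunits did not pass. Pole2, the second subunit of polymerase epsilon, was at -0.10 (interval -0.25 to 0.06), and Prim2, the large primase subunit, at 0.04 (-0.19 to 0.27). The other two Prim2 probe sets read 0.01 and, with wide spread, 0.96, both with overlapping groups. The difference within each array was -0.51 for Pole minus Pole2 and -0.44 for Prim1 minus Prim2, each with groups apart (exact two-sided permutation p = 0.1). Of the polymerase alpha genes, which extend the primers, Pola1 was at -0.25, adjusted p = 0.111, with groups apart, while a dim second probe set read 0.40 with overlap, and Pola2 was at -0.10 with a wide interval (-0.68 to 0.49). The lagging-strand polymerase delta genes Pold1 and Pold2 were at 0.05 and -0.11.

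In the clamp and its loader, 2 of 6 genes fell, both loader subunits. Rfc1 (chr5:65261852-65338617), the large subunit of the loader, read 947, 875 and 941 on the PIK3CA shRNA arrays, against 1163, 1297 and 1320.4 on the control shRNA arrays. Its change was -0.44 ± 0.08 (SE; limma adjusted p = 0.0215), and the other two Rfc1 probe sets read -0.32 and -0.44. Rfc5 (chr5:117379145-117389023), a small loader subunit, read 1356, 1362 and 1249.7 on the PIK3CA shRNA arrays, against 1619, 1781 and 1634 on the control shRNA arrays. It changed by -0.34 ± 0.07 (SE; limma adjusted p = 0.0374). Of the remaining small subunits, Rfc2 was at -0.29, adjusted p = 0.0652, with groups apart in all 3 of its probe sets, Rfc3 at -0.20 and Rfc4 at -0.09. Rfc1 minus the mean of the 4 small subunits changed by -0.21 (exact two-sided permutation p = 0.1). Pcna, the clamp that tethers the polymerases to DNA and is one of the brightest genes of the list, read 7575, 7645 and 7360.2 on the PIK3CA shRNA arrays, against 7117, 7571 and 6525 on the control shRNA arrays. The groups overlapped, with a change of 0.09 with an interval of -0.09 to 0.28.

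Single-stranded DNA binding showed 0 calls among its 3 genes by limma and 0 at an unadjusted p under 0.05. Rpa1, Rpa2 and Rpa3, the subunits of replication protein A, were at -0.12, -0.15 and 0.06, and a second Rpa2 probe set read -0.44 with groups apart. In Okazaki fragment maturation Fen1 (chr19:10199132-10204393), the nuclease that removes primer flaps, read 896, 1062 and 913 on the PIK3CA shRNA arrays, against 1366, 1334 and 1262 on the control shRNA arrays. The fall was -0.46 ± 0.09 (SE; limma adjusted p = 0.0283), and its second probe set read -0.38. Lig1, which seals the nicks, was at -0.02 with an interval of -0.20 to 0.16.

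For deoxynucleotide supply, Rrm2 (chr12:24708254-24714146), the regulated small subunit of ribonucleotide reductase, read 4622, 4579.7 and 4569 on the PIK3CA shRNA arrays, against 5533, 5875 and 5505 on the control shRNA arrays. The PIK3CA shRNA arrays were nearly equal and all below the controls, at -0.29 ± 0.06 (SE; limma adjusted p = 0.0298), and the other two probe sets read -0.42 and -0.41. Rrm1, the large subunit, was at -0.18, adjusted p = 0.140, with groups apart. Tk1, the thymidine salvage kinase, was at 0.15 (-0.06 to 0.36). Tyms, the thymidylate synthase gene, was the one member below the median brightness: its brightest probe set read 61.8 ± 6.57 in PIK3CA shRNA cells and 71.6 ± 23.3 in control shRNA cells (SD, n = 3 each), and its 4 probe sets, all dim, had changes from -0.48 to -0.14 with none past the threshold.

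Of the genes that rebuild chromatin after the fork, 0 of 4 passed by limma and 1, Dnmt1, was below an unadjusted p of 0.05. Dnmt1, the maintenance DNA methyltransferase, read 1871 ± 34.1 in PIK3CA shRNA cells and 2244 ± 133 in control shRNA cells (SD, n = 3 each), a change of -0.26, adjusted p = 0.0665, with groups apart in all 3 of its probe sets. Uhrf1, which brings Dnmt1 to new DNA, was at 0.04 (-0.15 to 0.22), and its dimmer second probe set read 0.32, both with overlapping groups. Chaf1b, a subunit of the histone chaperone CAF-1, was at -0.16, and Slbp, which binds the stem-loop of histone mRNAs, at -0.13 with groups apart.

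Read as probe sets rather than genes, 7 of the 97 were lower and 0 higher (2.30% and 2.64% of all probe sets), from 7 different genes: Cdc6, Mcm5, Mcm7, Mcm10, Prim1, Pole and Rfc1. Of the 97, 77 had a change below 0, with a median of -0.17 against -0.01 over all probe sets. Among the 33 genes with several probe sets, all probe sets were below 0 in 22, all were above 0 in 5 (Mcm2, Gins1, Prim2, Pold1 and Uhrf1) and the signs were mixed in 6. The probe sets used for Mcm4, Mcm5, Mcm6, Fen1 and Rrm2 carry the array maker's suffix for probes that can match other sequences too.

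**Figure D3:**
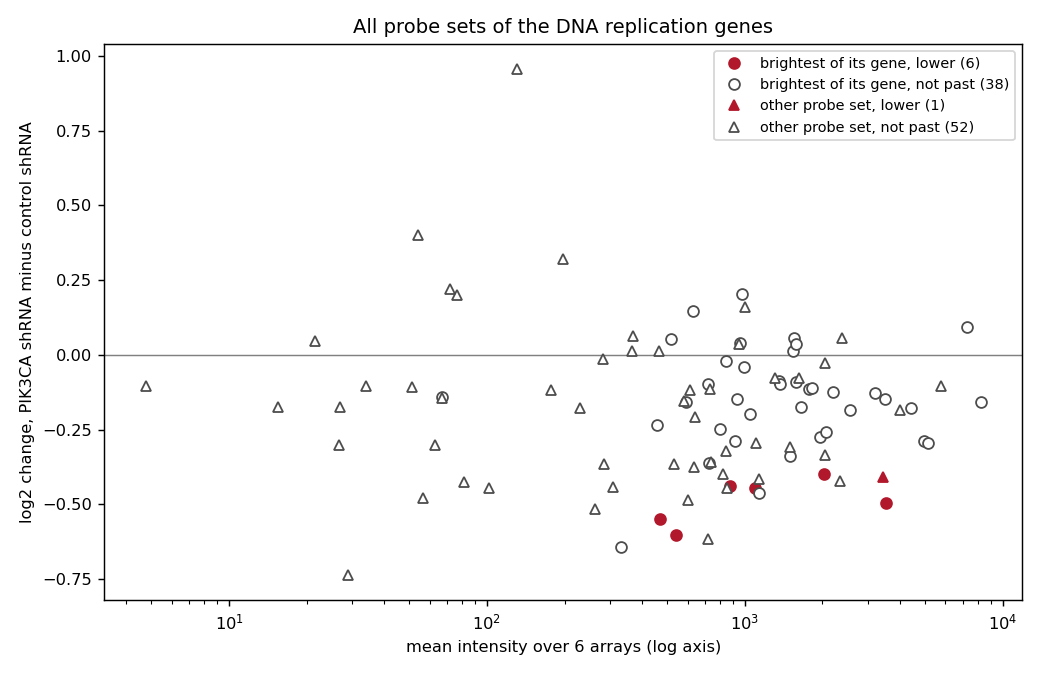
Log2 change (PIK3CA shRNA minus control shRNA) of the 97 probe sets of the 44 genes against their mean intensity over 6 arrays (log axis). Circles are the brightest probe set of each gene and triangles the others; the 7 filled red points are past adjusted p 0.05 over all probe sets, and all of them lie below 0.

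The position of the genes moved with the result. Over genes above the median brightness and outside the list, the median change was -0.25 on chromosome 8 and -0.15 on chromosome 5, against 0.20 on chromosome 2 and 0.18 on chromosome 6. Chromosomes 5 and 8 held 13 of the 44 members. All 13 had a change below 0, and 5 of them were called: Mcm5 and Orc6 on chromosome 8, and Pole, Rfc1 and Rfc5 on chromosome 5. On the other chromosomes 6 of 31 members were called (19.4%) and 23 had a change below 0. Those 6 were Cdc6 on chromosome 11, Mcm10 on 2, Cdc45 on 16, Prim1 on 10, Fen1 on 19 and Rrm2 on 12. Over all genes, on any chromosome, 5.62% were called lower and 52.0% had a change below 0. These shares were not counted for single chromosomes, so the members cannot be set against them there. Of the genes set against a partner of their complex, Mcm5, Orc6 and Gins4 are on chromosome 8. Pole and Rfc1 are on chromosome 5 and Gins1 is on chromosome 2. Less its chromosome's median, Gins4 was at -0.02 and Gins1 at 0.004, and Orc6 at -0.11 and Orc2 at -0.05. Pole was then at -0.46 and Pole2 at -0.14, and Prim1 at -0.39 and Prim2 at 0.03. Mcm5 was at -0.24 and its partners between -0.19 and -0.01. Rfc1 was at -0.30 and the small loader subunits between -0.19 and -0.05. The part of position in the within-complex differences was not tested.

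With each chromosome's median taken out of every array, a setting added once the values were known, 5 members were lower and 0 higher by limma at an adjusted p of 0.05, against 3.99% and 4.63% of all genes. At an unadjusted p under 0.05, 15 members were lower and 0 higher, against 12.2% and 12.1% of all genes. The 5 were Cdc6 (-0.54), Mcm10 (-0.63), Prim1 (-0.38), Fen1 (-0.41) and Rrm2 (-0.34). Mcm5 then read -0.24 (adjusted p = 0.0829) and Orc6 -0.11 (adjusted p = 0.456). Pole, Rfc1, Rfc5 and Cdc45 also lost their calls, with adjusted p of 0.0737, 0.0827, 0.180 and 0.0571. The number of members below 0 was 36 of 44, and the median of the 44 was -0.13. The 2 groups of chromosomes differed when each change was taken less its chromosome's median. The 13 members on chromosomes 5 and 8 then had a median of -0.05 (-0.29 before), with 10 below 0 (13 before). The 31 others had a median of -0.14 (-0.12 before), with 26 below 0 (23 before).

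**Figure D4:**
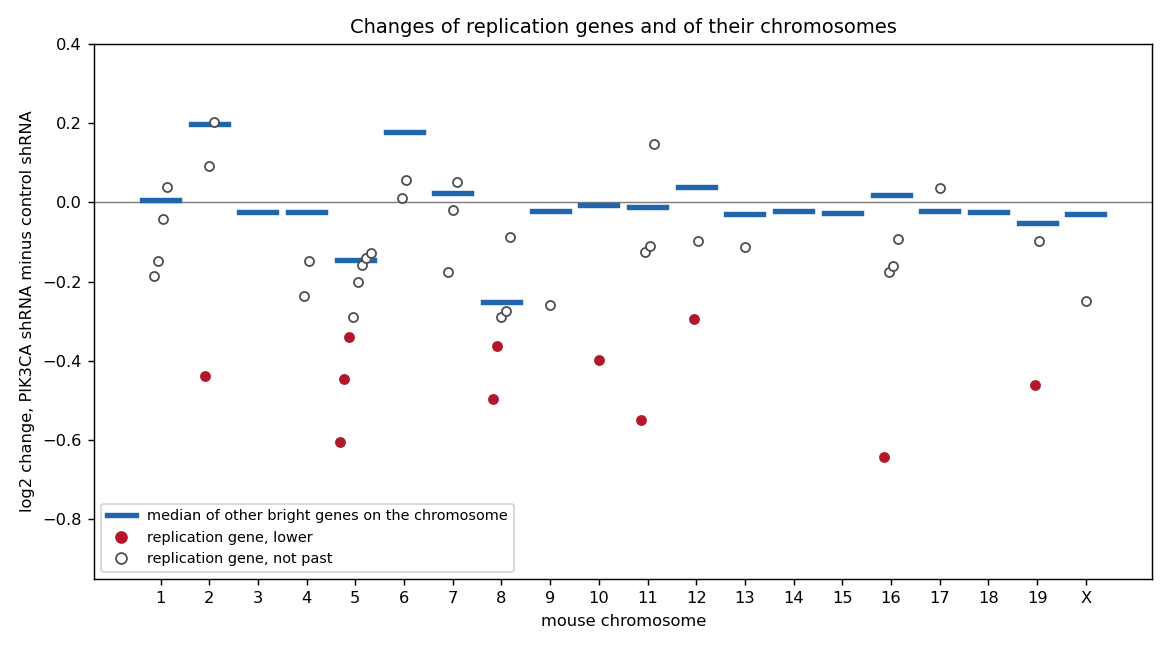
Log2 change (PIK3CA shRNA minus control shRNA) of each replication gene (points, red where lower past the threshold) by mouse chromosome, with the median change of other genes above the median brightness on that chromosome (blue bars). The bars of chromosomes 5 and 8 lie at -0.15 and -0.25 and those of chromosomes 2 and 6 at 0.20 and 0.18.

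Of a further list of 49 replication genes, 47 had a probe set, and of these 7 fell and 3 rose (18 and 5 at an unadjusted p under 0.05), with a median of -0.13. Over all genes, 5.62% were called lower and 5.88% higher (13.2% and 12.7% at an unadjusted p under 0.05). The falls were in Asf1b, a histone chaperone (-0.61), Dscc1, of the loader that acts in cohesion (-0.54), Dck, the deoxycytidine salvage kinase (-0.51), Donson, a fork factor (-0.48), Orc5 (-0.39), Gins3 (-0.38) and Cul4a, of the ligase that degrades Cdt1 (-0.29). The rises were in Pold4, the smallest polymerase delta subunit (0.60), Cdca7, a chromatin gene (0.45), and Cul4b, the relative of Cul4a (0.38).

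Pold4 read 1423, 1338 and 1488 on the PIK3CA shRNA arrays, against 957, 925 and 903 on the control shRNA arrays, with all PIK3CA shRNA arrays above the controls. Asf1b, Gins3 and Cul4a are on chromosome 8, and Dck and Orc5 on chromosome 5, while of the genes that rose Cdca7 is on chromosome 2. The count of falls was 2 with chromosome medians removed, and 4, 4 and 2 without PIK3CA shRNA replicates 1, 2 and 3, and 2, 3 and 3 without control shRNA replicates 1, 2 and 3.

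Among regulators of the G1/S step and mitotic genes, calls went both ways. Of all genes, 5.62% were called lower and 5.88% higher. Of genes outside the 44 and above the median brightness, 8.78% were called lower and 8.76% higher. Of 27 G1/S regulators 5 fell and 1 rose, with a median of -0.02. Ccne2, the cyclin that drives entry into S phase, read 663, 645 and 655 on the PIK3CA shRNA arrays, against 1031, 1081 and 966 on the control shRNA arrays, a change of -0.64 ± 0.06 (SE; limma adjusted p = 0.00458). Among the E2F genes, E2f7 (-0.40) and E2f4 (-0.64) fell and E2f5 (0.43) rose, and E2f4 is on chromosome 8. The inhibitor genes Cdkn1a (-0.43) and Cdkn2c (-0.68) also fell. Of 23 mitotic genes 3 fell, Hmmr (-0.78), Birc5 (-0.54) and Mki67 (-0.46), and 2 rose, Ube2c (0.51) and Nusap1 (0.36), with a median of -0.03. Both that rose are on chromosome 2. The share with a change below 0 was 55.6% and 60.9% in these 2 lists and 68.1% in the 47 further replication genes. It was 81.8% in the 44 replication genes and 52.0% over all genes, and the difference between the lists was not tested.

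**Figure D5:**
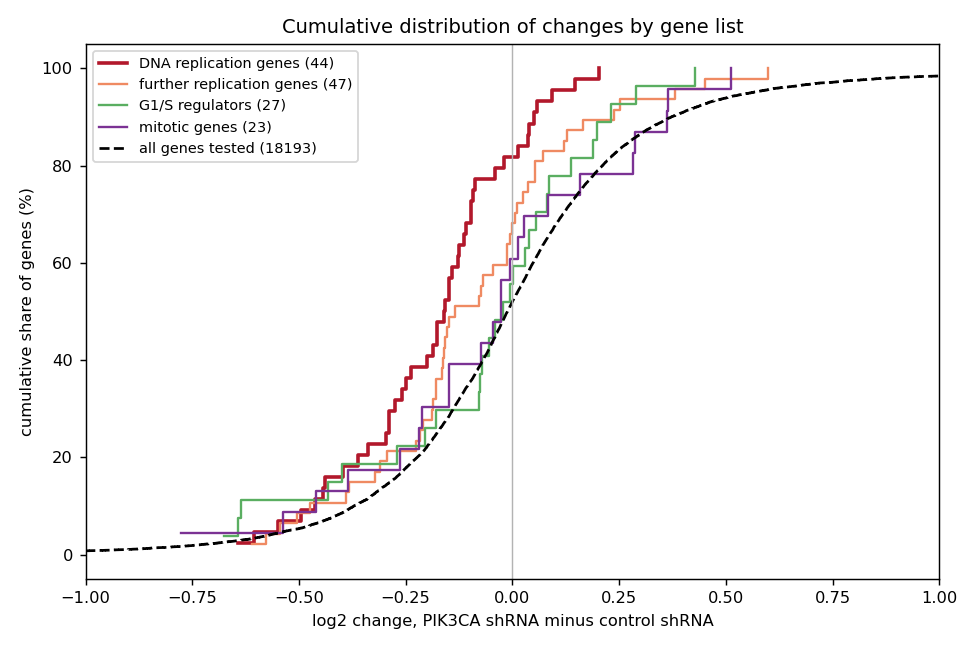
Cumulative share of genes (%) by log2 change (PIK3CA shRNA minus control shRNA) for the 44 replication genes, 47 further replication genes, 27 G1/S regulators, 23 mitotic genes and all 18193 genes; the axis stops at -1 and 1. The curve of the replication genes lies left of that of all genes around its median of -0.16, and its highest value is 0.20.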

How the data were processed

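RNA of 344SQ cells was hybridised to Affymetrix mouse arrays with a biotin label, per the labels' protocols. The deposited values are linear intensities per probe set, and the software that made them is not stated in the labels. The 6 arrays shared their minimum (0.0359) and maximum (17918.5) and had medians of 134.1 to 134.7, so the deposited arrays were already close to 1 shared distribution. The number of arrays sets the precision.

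Each array's intensities were multiplied to give all arrays the same median, 16 was added and log2 taken. The 64 array control probe sets were left out. Probe sets were named by the platform annotation (34945 with 1 symbol, 932 with several, 9160 with none listed), of which 34741 matched RefSeq's GRCm38.p6 gene table. Each gene was represented by its probe set with 1 symbol and the highest mean.

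The contrast was fitted with lmFit and eBayes of limma 3.58.1 (R 4.3.3), two-sided and without a replicate block. P-values were adjusted by Benjamini-Hochberg across the 18193 genes, or the 45037 probe sets, and the threshold was an adjusted p of 0.05. Alternatives changed the scaling, pseudocount, probe set rule, filter, prior, threshold and arrays. The script was tested on simulated data in which 200 of 18193 genes were changed. It recovered 20 of 100 genes with log2 changes of size 0.5 and 64 of 100 of size 1. Of its 91 calls, 7 were false. Spreads were shuffled over genes in the simulation, while the median SE was 0.074 in the 44 members against 0.112 over all genes. The recovered shares are thus not those of the members. A gene not past the threshold may still have changed. Single values had exact permutation tests over the 20 assignments of arrays. All members were accounted for by role. Further genes were named where past the threshold. The members and lists were chosen with earlier results of these data known, so the lists give no independent support. Figures used matplotlib 3.10.9.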

Additional observations from a re-analysis of the deposited data

How the results depend on the processing

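Of the 19 alternative settings tried, none turned the direction of any of the 11 called replication genes or of Pik3ca. The number of members below 0 was between 33 and 37 of 44, so some that were not called crossed 0. The count of lower members (11) was 7 when the most variable probe set (by interquartile range) stood for a gene, 18 when the prior followed intensity and was robust (the trend), 1 at an adjusted p of 0.01 and 5 with chromosome medians removed. With a replicate block it was 0 (15 at an unadjusted p under 0.05). No member was called higher by adjusted p in any setting. At an unadjusted p under 0.05 by limma, 1 was higher with the trend and 1 without control shRNA replicate 2. The labels do not say that the numbers pair the arrays, and same-numbered arrays did not deviate together (correlations of deviations from group means 0.0586, -0.00744 and -0.0234). Without 1 array the count of lower members was 3 to 5. The lower further replication genes (7) were 3, 12, 1 and 2 under the first 4 of these settings, 0 with the block and 2 to 4 without 1 array. The higher ones (3) were 1 with the mean of probe sets and 0 with the block. Lower and higher calls over all genes (1023 and 1070) were 1586 and 1606 with the trend, 257 and 379 at adjusted p 0.01, 153 and 260 with the block, and 414 to 532 and 512 to 606 without 1 array. Lower member probe sets (7) were 4 at a pseudocount of 1, 20 at 64, 29 with the trend, 0 at adjusted p 0.01, 0 with the block and 0 to 1 without 1 array. A stricter threshold cannot raise a count, by construction. The part of fewer arrays in the lower counts without 1 array was not tested, nor was the cause in the other settings. Dim probe sets, such as those of Tyms, have large spreads.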
